A study of Mus musculus with 20 samples.

Results

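Krüppel-like factors are transcription factors named after the Drosophila segmentation gene Krüppel. 10 of the genes that encode them, Klf2, Klf3, Klf4, Klf5, Klf6, Klf9, Klf10, Klf13, Klf16 and Klf17, were followed here through single 8-cell mouse embryos. They were taken by symbol from the 34937 genes counted, and were selected on the differences in read counts between maternal mutant and control embryos, which were already in view. For that difference the members' values are therefore a description, without a test. 9 of the 10 had enough reads to enter the fit across all genes, and Klf6 did not.

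RNA of whole embryos was sequenced at E2.5, one library per embryo, from 9 Ehmt2Cntr and 10 Ehmt2Mat embryos of mixed background. Ehmt2 encodes G9a, a methyltransferase that places dimethylation on lysine 9 of histone H3 (H3K9me2), and the comparison asks what the maternal store of this enzyme contributes to early gene expression. Mothers of both groups carried a floxed Ehmt2 allele (Ehmt2F) and Zp3-Cre, which is active in the growing oocyte. Mothers of controls had a wild type second allele (Ehmt2F/+), while mothers of Ehmt2Mat embryos had a null one (Ehmt2F/-), so that their oocytes lacked both copies and the control oocytes could lack 1. The embryo's own genotype varied within each group. 6 controls were Ehmt2+/+ and 3 were Ehmt2+/-, 5 Ehmt2Mat embryos were Ehmt2+/- (Ehmt2M/+) and 5 were Ehmt2-/- (Ehmt2M/Z). Embryos were taken only when they looked normal, which limits the mutant group to those that reached the 8-cell stage in good shape. The paper reports a mild delay of maternally depleted embryos at this stage. It also states that the sequenced ones departed from controls in developmental progression, although they looked alike. Such a difference in progress between the groups cannot be told apart from the maternal genotype here. Mother and litter are not in the sample records, so embryos were treated as independent. The mother's genotype is the group, and other differences between mothers cannot be told apart from it. With whole embryos, less RNA per cell and fewer cells holding it cannot be told apart either.

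All Krüppel-like factors share a carboxy-terminal DNA-binding region of 3 zinc fingers that reads GC-rich and CACCC sequences, as the related SP factors do, and they differ in the regions outside it that recruit other proteins. Klf2, Klf4, Klf5 and Klf17 act mainly as activators, and Klf2, Klf4 and Klf5 are known for sustaining pluripotency in mouse embryonic stem cells. Klf3, like Klf8 and Klf12, binds the corepressor CtBP, and Klf9, Klf10, Klf13 and Klf16 bind the corepressor SIN3A.

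The shared region is what makes these genes a family, and it is also where reads from one could be taken for another. The coding sequence of the last finger, 63 bases, is shown for the 4 members with the clearest differences between the groups and for Klf2, the one most like Klf4. Capitals mark bases that differ from Klf4.
Klf4: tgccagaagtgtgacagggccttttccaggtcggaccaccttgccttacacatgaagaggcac
Klf2: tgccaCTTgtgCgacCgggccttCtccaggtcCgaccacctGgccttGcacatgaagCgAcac
Klf5: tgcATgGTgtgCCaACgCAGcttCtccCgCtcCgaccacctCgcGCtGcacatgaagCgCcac
Klf16: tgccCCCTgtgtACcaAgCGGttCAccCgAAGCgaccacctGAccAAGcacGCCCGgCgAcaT
Klf17: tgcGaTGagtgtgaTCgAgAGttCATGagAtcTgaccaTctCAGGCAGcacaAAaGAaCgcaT
In GRCm38 these lie in the last exon of each gene, at chr4:55528131-55528193 for Klf4 (minus strand), chr8:72320851-72320913 for Klf2 (plus strand), chr14:99313258-99313320 for Klf5 (plus strand), chr10:80569053-80569115 for Klf16 (minus strand) and chr4:117759119-117759181 for Klf17 (minus strand). Klf2 differed from Klf4 at 11 of the 63 bases, Klf5 at 21, Klf17 at 28 and Klf16 at 30. Over the coding sequence of all 3 fingers, 243 bases, the closest pair was Klf2 and Klf4 at 78.2% identity, followed by Klf13 and Klf16 at 75.3%, and the most distant was Klf10 and Klf17 at 53.1%. No 50-base stretch of any member's transcripts, the length of a read, was shared with another KLF or SP gene. Klf17 shared 9.32% of such stretches with the annotated gene Gm20690 and Klf3 shared 3.48% with other genes, while the remaining members shared at most 0.263%. The counting kept multi-mapping reads, but whether the alignments behind it held any is not known, so whether reads of those copies are in the Klf17 and Klf3 counts was not tested.

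The stretch upstream of the start site is shown for Klf4 and Klf17, a member that was lower and one that was higher in Ehmt2Mat embryos, because family members can read such sequences in each other's promoters. Each is the 250 bases before the start in the RefSeq table for GRCm38.p6, on the minus strand, at chr4:55532476-55532725 for Klf4 and chr4:117765667-117765916 for Klf17. Capitals mark the GC box GGGCGG and the CACCC box CACCC on either strand, motifs that do not contain each other, with overlapping matches counted separately.
Klf4: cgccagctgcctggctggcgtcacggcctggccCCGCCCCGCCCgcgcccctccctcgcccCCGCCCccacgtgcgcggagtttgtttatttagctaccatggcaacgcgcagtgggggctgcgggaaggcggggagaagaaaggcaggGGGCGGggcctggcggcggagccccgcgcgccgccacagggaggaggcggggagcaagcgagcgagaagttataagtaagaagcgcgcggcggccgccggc
Klf17: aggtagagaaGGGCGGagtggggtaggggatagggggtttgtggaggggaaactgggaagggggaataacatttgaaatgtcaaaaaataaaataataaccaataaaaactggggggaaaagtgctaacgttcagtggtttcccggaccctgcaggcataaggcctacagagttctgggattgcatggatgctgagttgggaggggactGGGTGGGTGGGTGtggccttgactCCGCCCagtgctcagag
The Klf4 stretch held 4 GC boxes and no CACCC box, and the Klf17 stretch held 2 GC boxes and 3 CACCC boxes. Of 32851 promoters of the same length in the table, 32.7% held a GC box and 52% a CACCC box. Of the members 7 were in the table. Klf5, Klf10 and Klf16 were not.

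Libraries held between 8231646 and 30602434 counted reads, so that 3 reads, the limit set for a gene at 0, corresponded to between 0.098 and 0.364 CPM. CPM are counts per 1000000 reads of the library, here scaled by TMM, which corrects for a few abundant genes taking a larger share of one library. Dppa3, Pou5f1 and 4 other genes of cleavage-stage embryos were expressed in both groups. edgeR called 0 of these 6, against 9.35% of all tested genes, with 1 at an unadjusted p under 0.05. It was Tdgf1, at 104 ± 53.6 CPM in controls (SD, n = 9) and 38.4 ± 33.7 in Ehmt2Mat embryos (SD, n = 10, edgeR adjusted p = 0.0524), which DESeq2 did call. The 7 cumulus and granulosa markers summed to between 0 and 5.02 CPM in controls and between 0 and 1.52 in Ehmt2Mat embryos, with 5 of 7 at 0 throughout. The 6 sperm markers summed to at most 0.769 and 1.23 CPM, with 4 at 0. Ehmt2 itself read 141 ± 59.7 CPM in controls (SD, n = 9) and 102 ± 32.7 in Ehmt2Mat embryos (SD, n = 10), a log2 fold change of -0.47 ± 0.24 (SE, edgeR adjusted p = 0.233). Counts over the whole gene in an embryo that can transcribe its own copy, or a truncated one, do not check the deletion in the oocyte. On the first principal component of all genes, 8 controls lay between -79.0 and -49.6 and control embryo 10 at 26.0, within the range of the Ehmt2Mat embryos (-3.03 to 133).

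Across the fit of all genes, edgeR's quasi-likelihood test called 1099 of 11754 genes at an adjusted p under 0.05 (9.35%), with 4.37% of the tested genes higher and 4.98% lower in Ehmt2Mat embryos. 4 of the 9 members that could be fitted were among them. Klf4 and Klf5 were lower, and Klf16 and Klf17 higher. 7 of the 9 had a negative log2 fold change and the median over the 9 was -0.77, where the median over all tested genes was -0.04. Since the members were picked with this contrast in view, nothing is read from these counts.

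**Figure D1:**
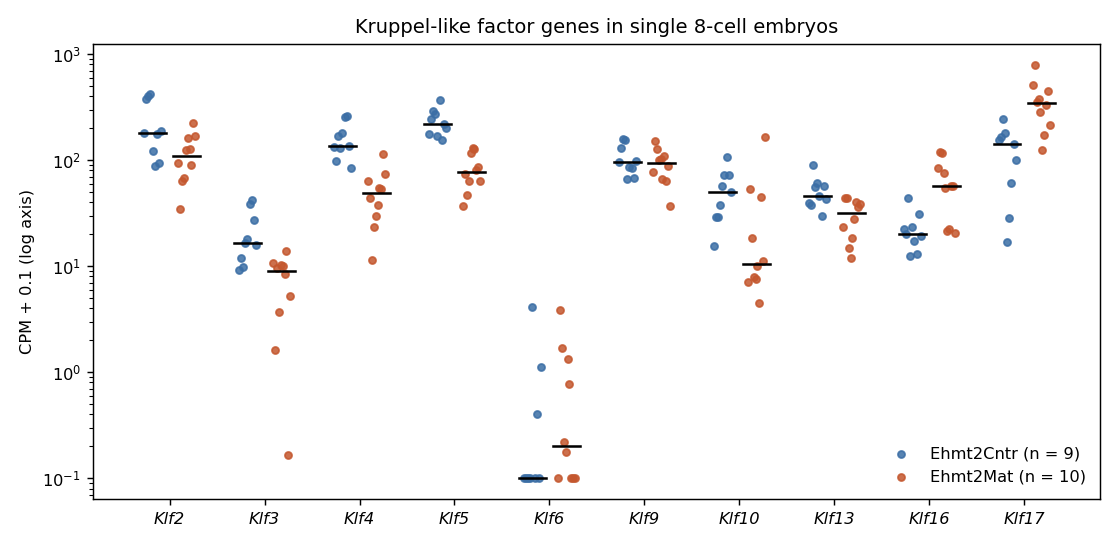
CPM (plus 0.1, log axis) of the 10 members in each of 9 Ehmt2Cntr (blue) and 10 Ehmt2Mat (orange) embryos, with black bars at the medians. The Klf5 points of the groups do not overlap, the Klf16 and Klf17 medians lie higher in Ehmt2Mat embryos, and Klf6 is near 0 in both.

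Klf5, a zinc finger activator needed for the trophectoderm and for inner cell mass cells, was the member that separated the groups completely. In controls it ranged from 155 to 366 CPM with a median of 218, and in Ehmt2Mat embryos from 37.1 to 129 with a median of 77.2. Every Ehmt2Mat embryo lay below every control, which was so in either direction for 0.519% of all tested genes. The log2 fold change was -1.49 ± 0.23 (SE), or 2.82-fold lower. The gene lies at chr14:99298691-99313405 (GRCm38).

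Klf4, the reprogramming factor, was lower by a similar amount, with a little more overlap. Controls ranged from 84.5 to 259 CPM around a median of 137, and Ehmt2Mat embryos from 11.3 to 114 around 48.7. 9 of the 10 Ehmt2Mat embryos lay below every control, and the exception, embryo 9 at 114 CPM, lay below the control median. The log2 fold change was -1.67 ± 0.32 (SE). Klf4 lies at chr4:55527143-55532466 (GRCm38).

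Klf2, which can stand in for Klf4 and Klf5 in embryonic stem cells, had values in the same direction but did not pass. Control values spread from 88.4 to 426 CPM around a median of 179 and Ehmt2Mat values from 34.9 to 225 around 109, with a log2 fold change of -0.97 ± 0.34 (SE). The controls were unevenly spread. Embryos 2, 3 and 5 read 379, 400 and 426 CPM, while the other 6 lay at or below 190. Only 3 Ehmt2Mat embryos lay below every control. With 1 embryo left out the log2 fold change ranged from -1.13 to -0.81. It was -0.85, -0.83 and -0.81 without control 2, 3 or 5. Without control 7, control 9 or Ehmt2Mat embryo 9 it was -1.08, -1.08 and -1.13.

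Klf17, found in oocytes and cleavage-stage embryos and the member least like the others in the finger region (56.9% mean identity), had the highest level per length of any member in Ehmt2Mat embryos. Its range was 16.8 to 244 CPM in controls (median 142) and 123 to 797 in Ehmt2Mat embryos (median 344). 7 of the 10 Ehmt2Mat embryos lay above every control, and 4 of 9 controls lay below every Ehmt2Mat embryo. The log2 fold change was 1.58 ± 0.40 (SE), or 2.99-fold higher. Within the controls the 3 lowest embryos, 6, 7 and 8, read 16.8, 28.4 and 61.5 CPM. Its coefficient of variation in controls, 62.2%, was the largest of the fitted members, and that of Klf5, 29.4%, the smallest. Klf17 lies at chr4:117757836-117765648 (GRCm38), on the same chromosome as Klf4.

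Klf6, a broadly expressed activator of the same subgroup, was barely detected. It had 0 reads in 6 of 9 controls and in 4 of 10 Ehmt2Mat embryos and reached at most 4.03 and 3.74 CPM. More than 3 reads were found in 3 controls and 5 Ehmt2Mat embryos. It was left out of the fit for that reason.

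Klf3, the member that binds CtBP, read 9.10 to 42.4 CPM in controls (median 16.5) and 0.0659 to 13.9 in Ehmt2Mat embryos (median 8.89), with a log2 fold change of -1.53 ± 0.54 (SE) that did not pass. 6 of 9 controls lay above every Ehmt2Mat embryo and all 10 Ehmt2Mat embryos lay below the control median. The lowest value was a single read in Ehmt2Mat embryo 9. The size of the difference was close to that of Klf5, with a larger error.

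The members that bind SIN3A differed among themselves. Klf16 read 12.4 to 43.6 CPM in controls (median 20.2) and 20.6 to 119 in Ehmt2Mat embryos (median 57.2), a log2 fold change of 1.49 ± 0.35 (SE). 7 of the 10 Ehmt2Mat embryos lay above every control, and the other 3, embryos 6, 7 and 10, read 21.6, 22.4 and 20.6 CPM, near the control median. Klf16 lies at chr10:80567124-80577321 (GRCm38).

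Klf13, the member closest to Klf16 in the finger region, had values in the opposite direction. Its control range was 29.8 to 90.0 CPM (median 46.1) and its Ehmt2Mat range 11.9 to 44.2 CPM (median 32.0). All 10 Ehmt2Mat embryos lay below the control median, but the log2 fold change of -0.77 ± 0.28 (SE) did not pass. Klf9, a repressor induced by glucocorticoid and thyroid hormone, hardly differed, at 66.2 to 158 CPM in controls (median 95.2) and 36.8 to 150 in Ehmt2Mat embryos (median 93.6), a log2 fold change of -0.18 ± 0.24 (SE).

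Klf10, an early target of transforming growth factor beta signalling, had the largest coefficient of variation of the fitted members among Ehmt2Mat embryos, 150%. Controls ranged from 15.4 to 107 CPM (median 50.3), and Ehmt2Mat embryos from 4.43 to 164 (median 10.5). 6 Ehmt2Mat embryos lay below every control, while embryo 10 lay above every control at 164 CPM. The log2 fold change was -0.67 ± 0.57 (SE) with that embryo included. Without it the difference was larger, at -1.51 ± 0.48 (SE), given as a description chosen after the values were seen.

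**Figure D2:**
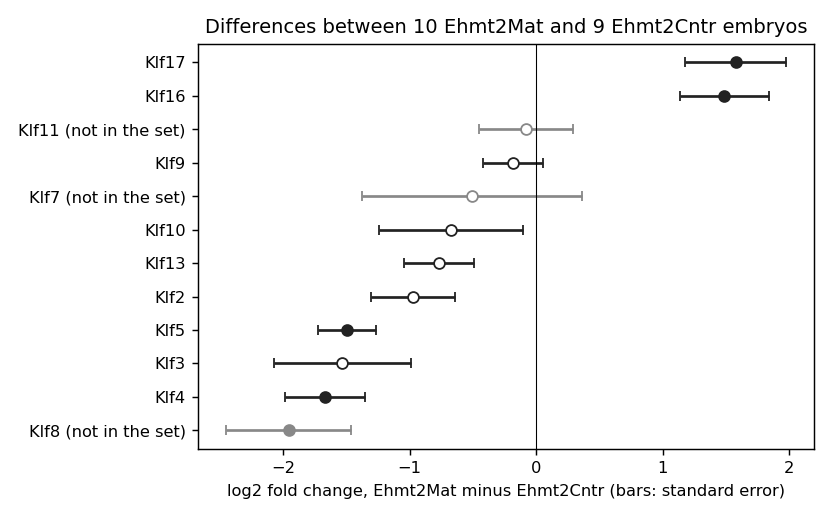
Log2 fold change between 10 Ehmt2Mat and 9 Ehmt2Cntr embryos with its standard error, for the 9 fitted members (black) and 3 further KLF genes (grey). Filled points passed an adjusted p of 0.05 over all 11754 genes tested. Klf4, Klf5 and Klf8 lie on the lower side and Klf16 and Klf17 on the higher side.

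To compare levels between genes, CPM were divided by exon length in kilobases. In controls the order of the medians was Klf5 (127 CPM per kilobase), Klf2 (97.0), Klf17 (59.1), Klf4 (44.9), Klf9 (29.2), Klf10 (16.5), Klf16 (7.57), Klf13 (6.12), Klf3 (1.46) and Klf6 (0). In Ehmt2Mat embryos it was Klf17 (143), Klf2 (59.1), Klf5 (44.9), Klf9 (28.7), Klf16 (21.4), Klf4 (16.0), Klf13 (4.24), Klf10 (3.45), Klf3 (0.79) and Klf6 (0.0236). Klf17 thus stood first rather than the third, and Klf4 stood below Klf16. Many neighbours in these orders changed places from embryo to embryo. Klf5 was above Klf2 in 5 of 9 controls, Klf17 above Klf4 in 6 of 9 and Klf4 above Klf9 in 6 of 9. Among Ehmt2Mat embryos Klf16 was above Klf4 in 6 of 10 and Klf13 above Klf10 in only 3 of 10. Klf13 was above Klf3 in all 9 controls, and Klf10 was above Klf3 in all 10 Ehmt2Mat embryos. The sample records state that the amplification favours 3′ ends. Coverage along the genes was not measured here, so how well exon length corrects these levels is not known.

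The embryo's own genotype was not used to choose the members, and its effect was tested within each maternal group. Among Ehmt2Mat embryos edgeR called 0 of 12195 genes between Ehmt2M/Z and Ehmt2M/+ (0%, with 270 at an unadjusted p under 0.05 and 3 called by DESeq2). For Klf4 the mean was 57.2 ± 36.1 CPM in Ehmt2M/Z (SD, n = 5) and 43.9 ± 22.8 in Ehmt2M/+ (SD, n = 5). Klf5 read 86.5 ± 37.4 and 78.8 ± 30.9, Klf16 58.8 ± 23.8 and 67.1 ± 48.8, and Klf17 359 ± 134 and 365 ± 259 CPM. These differences were smaller than the spread within either genotype.

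Among the 10 members, Klf10 had the largest difference of the mean log2 CPM between these genotypes. It read 4.43, 6.95, 7.44, 7.78 and 11.0 CPM in the 5 Ehmt2M/Z embryos and 9.99, 18.3, 45.2, 53.4 and 164 CPM in the 5 Ehmt2M/+ embryos. The ranges overlapped by 1 embryo of each genotype, and the difference of the mean log2 CPM was -2.35. A two-sided exact permutation test gave p = 0.0159 for this gene, where the smallest p that 5 against 5 allows is 0.00794, and 10 members were tested. Over all genes edgeR gave an adjusted p of 1.00 with a log2 fold change of -2.95 ± 0.64 (SE), while DESeq2 gave -2.98 with an adjusted p of 0.00252. The result therefore depends on the tool. For Klf13 the difference of the mean log2 CPM was -0.75 (exact permutation p = 0.0952), and the other 8 members had exact p of at least 0.214.

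Within controls, edgeR called 0 of 12646 genes between 3 Ehmt2+/- and 6 Ehmt2+/+ embryos (0%, with 572 at an unadjusted p under 0.05 and 3 called by DESeq2). The largest differences of the mean log2 CPM among the members were 1.14 for Klf17 and -1.05 for Klf3. Klf3 read 11.5 ± 3.71 CPM in Ehmt2+/- (SD, n = 3) and 25.8 ± 12.6 in Ehmt2+/+ (SD, n = 6), with an exact two-sided permutation p of 0.0595, the lowest of the 10, where 0.0119 is the smallest p possible.

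Because all Ehmt2+/+ embryos were controls and all Ehmt2-/- embryos were Ehmt2Mat, the maternal comparison was also made between Ehmt2+/- embryos alone. With 3 against 5 embryos, edgeR called 0 of the 10 members, Klf6 included, and 1 of 13401 genes. At an unadjusted p under 0.05 there were 3 of the 10 members and 906 of the 13401 genes. DESeq2 was not run on these embryos alone. Log2 fold changes were -1.56 for Klf4, -1.52 for Klf5, 1.22 for Klf16 and 1.12 for Klf17, in the same direction as over all embryos. These embryos are part of those on which the members were selected, so the shared direction is a description and no independent check. For Klf10 the sign turned, to 0.86, with the 3 Ehmt2+/- controls at 15.4, 29.0 and 50.3 CPM.

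**Figure D3:**
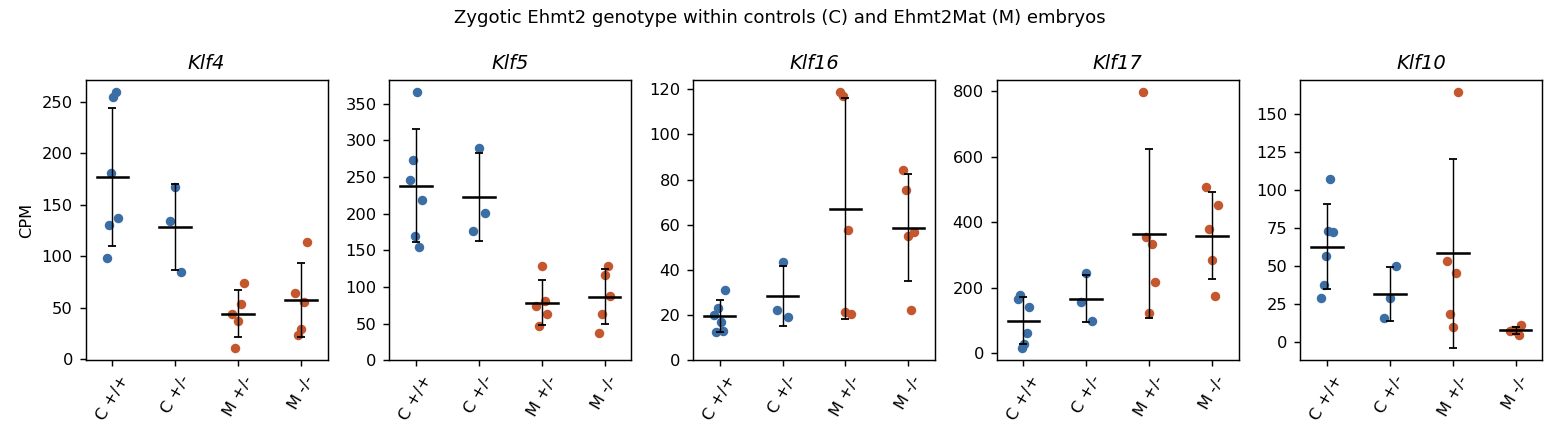
CPM of 5 members by maternal group and zygotic Ehmt2 genotype (6 C +/+, 3 C +/-, 5 M +/- and 5 M -/- embryos), with mean and SD. For Klf4, Klf5, Klf16 and Klf17 the genotypes within a maternal group overlap. For Klf10 the M -/- embryos lie at or below 11.0 CPM, and the lowest M +/- embryo lies at 9.99 CPM.

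Whether members varied together from embryo to embryo was examined over the 36 pairs of the 9 fitted members, within each maternal group, 72 correlations of log2 CPM in all. Of these, 9 had an unadjusted permutation p under 0.05 and 3 passed Benjamini-Hochberg adjustment over the 72. Klf3 and Klf10 rose and fell together in controls (n = 9), with a Pearson's r of 0.93 (exact permutation p = 0.000168, adjusted 0.0121) and a Spearman's rho of 0.98 (p = 5e-05, adjusted 0.00357). Pearson's r was 0.92 without the 2 embryos farthest from the Klf3 median and 0.90 to 0.94 with any 1 control left out. Controls 7, 8 and 9, all Ehmt2+/+, were highest in both genes, and over the 6 others r was 0.89. Mean levels in Ehmt2+/- and Ehmt2+/+ controls (n = 3 and 6) were 11.5 and 25.8 CPM for Klf3. For Klf10 they were 31.6 and 62.7 CPM. The permutation took no account of zygotic genotype, and its part in this correlation was not tested. In Ehmt2Mat embryos the same pair gave r = -0.06 (permutation p = 0.891). The difference between the groups was not tested.

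The other pairs were Klf2 with Klf9 in controls (r = 0.92, exact permutation p = 0.00153, adjusted 0.0366; rho = 0.87, p = 0.00451, adjusted 0.0812) and Klf16 with Klf17 in Ehmt2Mat embryos (r = 0.87, permutation p = 0.00113, adjusted 0.0366; rho = 0.84, p = 0.00386, adjusted 0.0812). Without the 2 embryos farthest on the first gene r was 0.85 and 0.82. Both relations rest largely on embryos that stand apart. For Klf2 and Klf9, controls 2, 3 and 5 lay above the other 6, over which r was 0.64. For Klf16 and Klf17, Ehmt2Mat embryos 6, 7 and 10 lay below the other 7, over which r was 0.59. In the other maternal group the pairs gave r = -0.63 (permutation p = 0.0518) and r = 0.28 (exact permutation p = 0.471). Without control 8 none of the 72 correlations passed the adjustment, and without Ehmt2Mat embryo 9 5 did.

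**Figure D4:**
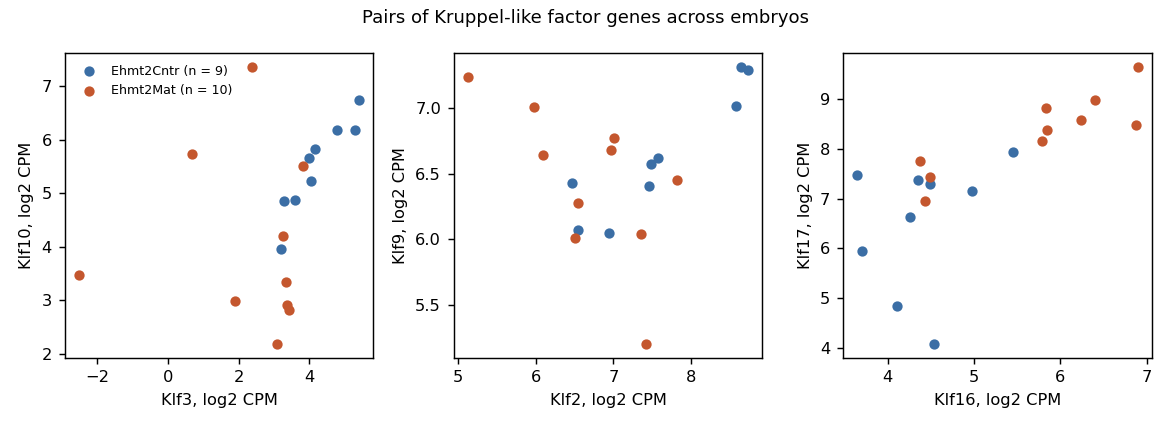
Log2 CPM of 3 pairs of members, one point per embryo (9 Ehmt2Cntr in blue, 10 Ehmt2Mat in orange). Klf3 and Klf10 lie along a line in controls (r = 0.93), controls 2, 3 and 5 stand apart at the upper right for Klf2 and Klf9, and Ehmt2Mat embryos 6, 7 and 10 stand apart at the lower left of their group for Klf16 and Klf17.

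Over all tested genes, those whose deviations from the group means were most like a member's across the 19 embryos were taken as a description, without a test. Klf17 was followed most closely by Obox8, a homeobox gene (r = 0.91), by Phkg2, which encodes a catalytic subunit of phosphorylase kinase (0.89), and by A630072M18Rik (0.87). The mean level of Obox8 was 608 CPM in controls and 1128 CPM in Ehmt2Mat embryos. Klf4 was followed by Zfp296 (0.81) and Ipo8 (0.77). For Klf5 the values were lower, with Mff (0.74), Zfp691 (0.73) and Sapcd2 (0.72). The points share the libraries and their depth.

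The remaining KLF genes, none of them among the 10, were examined in the same fit. Klf8, which like Klf3 recruits CtBP, fell from 57.0 ± 34.5 CPM in controls (SD, n = 9) to 14.7 ± 10.9 in Ehmt2Mat embryos (SD, n = 10), a log2 fold change of -1.96 ± 0.49 (SE, edgeR adjusted p = 0.0135). Controls ranged from 7.59 to 111 CPM and Ehmt2Mat embryos from 0.768 to 40.4, so the groups overlapped. Klf11, a SIN3A-binding member, gave -0.08 ± 0.37 (adjusted p = 0.933), and Klf7, at a median of 2.95 CPM in controls, gave -0.51 ± 0.87 (adjusted p = 0.797). Klf1, Klf14 and Klf15 were too low to fit, and Klf12 was at 0 in all 19 embryos. Of the 9 SP genes, which share the finger region, 5 could be fitted. edgeR called 0 of these, against 9.35% of all tested genes, with 0 at an unadjusted p under 0.05 and 0 called by DESeq2. These 5 are too few to tell their share from that. The most abundant of them, Sp1, gave a log2 fold change of -0.25 ± 0.25 (adjusted p = 0.608).

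The proteins that Krüppel-like factors work with were taken as lists. The lists here and below were chosen with earlier results of these data known, so nothing is read from how many of their genes passed. Of 12 corepressors and coactivators, all fitted, 2 were lower (4.98% of all tested genes were), 0 were higher and 10 did not pass, and the median log2 fold change was -0.31. Both were CtBP genes. DESeq2 called 3, with Hdac3 added, which in edgeR gave a log2 fold change of -1.40 ± 0.46 (adjusted p = 0.0563). Ctbp1 fell from 63.1 ± 24.9 to 23.1 ± 7.95 CPM (SD, n = 9 and 10, log2 fold change -1.45 ± 0.28, edgeR adjusted p = 0.00205), and Ctbp2 from 82.2 ± 82.6 to 21.4 ± 13.6 CPM (-1.94 ± 0.42, adjusted p = 0.0053). The SIN3 genes did not pass. Sin3a gave 0.55 ± 0.28 (adjusted p = 0.242) and Sin3b -0.19 ± 0.29 (adjusted p = 0.766). Of 5 ubiquitin ligases known to act on KLF proteins edgeR called 0, against 9.35% of all tested genes (1 at an unadjusted p under 0.05, 0 by DESeq2). Again 5 genes are too few to tell their share from that. The median of the ligases was -0.49, and the most abundant, Vhl, gave -0.49 ± 0.20 (adjusted p = 0.124).

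Of 11 genes of the LIF-STAT3 and MEK5-ERK5 pathways, which feed into Klf4 and Klf2 respectively, 8 were fitted and 1 passed, a share close to the 9.35% of all tested genes, with a median of -0.28. Mef2d, a transcription factor that ERK5 activates, fell from 74.5 ± 29.9 to 16.2 ± 8.76 CPM (SD, n = 9 and 10, log2 fold change -2.20 ± 0.39, edgeR adjusted p = 0.00115). Stat3 gave -0.18 ± 0.39 (adjusted p = 0.846). Il6st, the shared receptor subunit gp130, had the largest fold change of the list at 2.98 ± 1.01 but did not pass (adjusted p = 0.0636), and was chosen after its value was seen. DESeq2 called 2 genes of this list, Il6st and Mef2d, and edgeR called 2 with control 9 left out.

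Of 10 pluripotency genes that act with Klf2, Klf4 and Klf5, 9 were fitted and 4 were lower, with a median of -0.74, where 4.98% of all tested genes were lower. This list too was chosen with earlier results of these data known, and nothing is read from its count. Sall4, a zinc finger factor needed by the early embryo, fell from 688 ± 302 to 328 ± 54.4 CPM (SD, n = 9 and 10, log2 fold change -1.07 ± 0.20, edgeR adjusted p = 0.0016). Log2 fold changes were -1.77 ± 0.51 for Tbx3 (adjusted p = 0.0275), -2.07 ± 0.62 for Prdm14 (adjusted p = 0.0346) and -2.26 ± 0.71 for Tfcp2l1 (adjusted p = 0.0436). The others did not pass, among them Pou5f1 at -0.18 ± 0.38 and Nanog at -0.60 ± 0.40. The count was 5 with DESeq2 or without control 10, and 2 without control 5, control 7, Ehmt2Mat embryo 4 or Ehmt2Mat embryo 8.

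Of 8 trophectoderm genes, the lineage in which Klf5 is required, 6 were fitted and 2 were higher, with a median of 0.11, where 4.37% of all tested genes were higher. The paper had already reported an increase of these 2 between the same groups, and nothing is read from the count. Tead4, the factor at the top of that programme, rose from 230 ± 58.5 to 430 ± 125 CPM (SD, n = 9 and 10, log2 fold change 0.90 ± 0.19, edgeR adjusted p = 0.0046) and Tfap2c from 214 ± 66.1 to 360 ± 111 CPM (0.75 ± 0.20, adjusted p = 0.018). The other 4 did not pass and lay on both sides of 0, with Eomes at -2.52 ± 1.38 (adjusted p = 0.283), Gata3 at -1.43 ± 0.96 (adjusted p = 0.396), Krt8 at -0.33 ± 0.95 (adjusted p = 0.888) and Krt18 at 0.54 ± 0.77 (adjusted p = 0.746). Cdx2 and Elf5 did not pass the filter on low counts. For Cdx2 the median was 0 in both groups, the mean 5.96 and 0.161 CPM, and the highest embryo 33.1 CPM among controls and 1.56 CPM among Ehmt2Mat embryos. With the embryo number as a block 1 gene of this list passed.

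**Figure D5:**
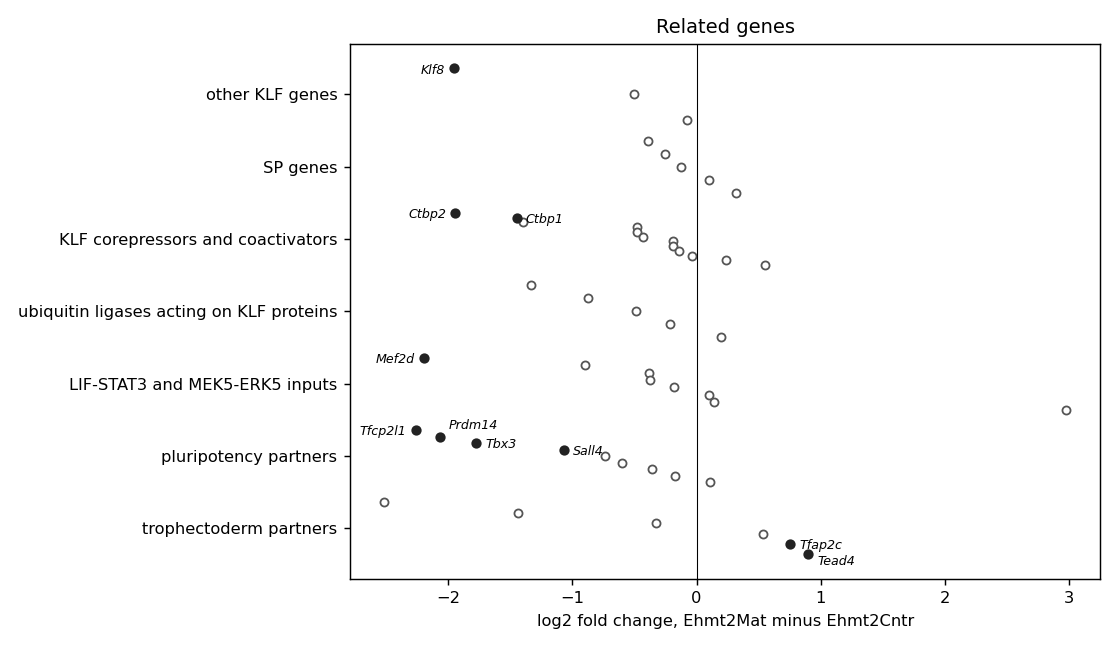
Log2 fold change of each fitted gene in 7 lists of related genes, Ehmt2Mat minus Ehmt2Cntr, with genes past an adjusted p of 0.05 filled and named. Points are spread vertically within a list for visibility. The 4 named pluripotency genes lie below 0 and the 2 named trophectoderm genes above it.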

How the data were processed

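Single-embryo cDNA was amplified with a 3′ bias and sequenced as single-end 50 bp reads. The authors deposited raw counts per Ensembl gene for each embryo, made per the file headers with featureCounts 1.5.0 on Ensembl release 82 exons of GRCm38, a minimum overlap of 10 bases, multi-mapping reads kept, no strand option, and a read counted for each gene it touched. The study's methods name Tophat2 for gene expression and bowtie, restricted to uniquely mapping reads, for transposable elements. Which alignments the deposited counts came from is not given in the sources used here. Groups and zygotic genotypes came from the sample records, which list 20 embryos. Control 4 was not analysed here, and no sequencing batch is given in these records.

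Groups were compared in edgeR 4.0.16 (R 4.3.3) by its quasi-likelihood test after filterByExpr and TMM. P-values were adjusted by Benjamini-Hochberg over all tested genes, at a threshold of 0.05. Log2 CPM used a prior count of 2. Permutation tests were exact, except that correlations over 10 embryos used 100000 resamples. They were computed in Python, with ranks and the adjustment over pairs from SciPy 1.17.1. Fits were tested on simulated counts.

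The members and lists were chosen with earlier results of these data known. The genes named were all members, each list gene past the threshold or, in a list with none, its most abundant gene, and the 3 genes most like Klf4, Klf5 and Klf17, of which 1 is not reported here. Others in the lists are named as context after their values were seen.

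Alternatives were DESeq2 1.42.0, RLE and upper-quartile scaling, other filters, a block on embryo number, embryos left out in turn and Ehmt2+/- embryos alone. No pairing by embryo number was seen (0 of 9 same-number pairs correlated over 0.1). Finger sequences are from the longest reading frame of GENCODE transcripts, promoters from RefSeq.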

Additional observations from a re-analysis of the deposited data

Results flagged for a closer look

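Among 18 sets of values (9 fitted members in 2 groups), Klf3 in Ehmt2Mat embryo 9 stood apart. Its log2 CPM was -2.51, from a single read (0.0659 CPM), while the other Ehmt2Mat embryos lay between 0.69 and 3.81. Its gap to the nearest embryo was 0.507 of the range of the group, above Dixon's critical value of 0.466 for 10 samples. Chance alone marks about 1 in 20 such sets. No cause was tested.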

How the results depend on the processing

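The counts of members are a description, since the members were selected on this contrast, and nothing is read from their stability. Members past the threshold numbered 4 in the fit described, under RLE and upper-quartile scaling and without a filter on low counts, 6 with DESeq2 (Klf2 and Klf3 added), 5 with at least 10 counts in every embryo (Klf2 added) and 4 to 5 with 1 embryo left out. Over all genes the calls numbered 1748 with DESeq2 and 693 with the block, against 1099. With no filter the median log2 fold change of all genes was 0.13 instead of -0.04. Among Ehmt2+/- embryos alone the members past the threshold numbered 0 and the list genes 0 instead of 10, while Klf10 turned to 0.86, and that fit has 3 and 5 embryos. Log2 fold changes with 1 embryo left out ranged from -1.88 to -1.55 for Klf4, -1.59 to -1.39 for Klf5, 1.34 to 1.67 for Klf16, 1.37 to 1.77 for Klf17 and -1.51 to -0.47 for Klf10. Without control 10, which lay apart from the other controls, they were -1.75, -1.52, 1.46 and 1.55 for Klf4, Klf5, Klf16 and Klf17. List genes past the threshold numbered 8 to 12 with 1 embryo left out. The zygotic comparison within Ehmt2Mat embryos gave 1 member with DESeq2 (Klf10) and 0 otherwise, and 0 within controls under each alternative run (edgeR 0 and DESeq2 1 at an unadjusted p under 0.05). Correlations past adjustment numbered 3 and ranged from 0 (without control 8) to 5 (without Ehmt2Mat embryo 9) with 1 embryo left out, at 1 without Ehmt2Mat embryo 1, 2, 4, 5, 6, 7, 8 or 10. 4 positions in the order of levels changed without division by length. Embryos sharing a number did not deviate together (mean r = 0.01 over 9 pairs, at most 0.09). What else embryos of the same number might share was not tested. With that number as a replicate block, which leaves out Ehmt2Mat embryo 4, the same 4 members and 8 list genes passed and Klf10 moved to -1.39. The causes of these changes were not tested. Klf6 had 0 reads in 10 of 19 embryos, deep libraries among them, and the cause was not tested. Standard errors cover the spread between embryos, counting error included.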
